A study of Mus musculus with 27 samples.

Results

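The cytosolic ribosomal protein genes encode the protein part of the ribosome that translates nuclear mRNAs. They were taken as the protein-coding genes whose symbols follow the Rps and Rpl naming of the 2 subunits, with pseudogenes left out. Of 82 matching symbols among the 48440 genes of the count table, 2 (Rps4l and Rpl6l) were pseudogenes, and 80 remained: 31 of the small and 49 of the large subunit. The filter on low counts kept 78 of the 80, and removed Rpl3l and Rpl10l.

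RNA was sequenced from 27 libraries of cultured primary lung fibroblasts, 3 in each of 9 groups. All cells came from wild-type C57BL/6 mice and were grown with 15% serum at 3% oxygen. Cells were exposed for 15 or 35 d to 3 uM KU60019, which blocks ATM, a kinase that signals DNA breaks, or to the vehicle DMSO, which gave the groups DMSO 15 d, KU60019 15 d, DMSO 35 d and KU60019 35 d. In 4 further groups the same agent had been removed and cells were harvested 20 d later; they are called DMSO 15 d removed, KU60019 15 d removed, DMSO 35 d removed and KU60019 35 d removed. In the group IR 10 d, cells were collected 10 d after a dose of 10 Gy X-rays, and they served the study as its reference for senescent cells. Library titles end in _705, _715 or _716, with 1 library of each ending per group (S1_705, S2_715 and S3_716 in DMSO 15 d). What the endings stand for was not stated, so p-values measure only the spread between these libraries.

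Each ribosome holds 1 copy of most of its proteins, and cells make these proteins in matched amounts. Their short mRNAs are among the most abundant of a cell, and most begin with a cytosine followed by an unbroken stretch of pyrimidines, the 5′ terminal oligopyrimidine tract, through which mTOR and LARP1 set their translation. Some members act outside the ribosome: Rpl5 and Rpl11 bind MDM2 when ribosome assembly is disturbed and so stabilise p53, and Rps27l, a paralogue of Rps27, is itself a p53 target. RNA abundance, the quantity measured here, does not report translation.

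The RefSeq table of start sites (GRCm38.p6) held 60 of the 80 genes. At the annotated start, 19 of the 60 (31.7%) had a cytosine, against 18.2% of all 27025 genes of the table. A run of at least 5 C or T bases began exactly at the start in 16 of the 60 (26.7%), against 5.28% of all genes. A run of at least 8 such bases lay within 25 bases of the start on either side in 32 (53.3%), against 22.3%. The following windows of 30 bases, 15 on each side of the annotated start, show 3 members with a run at the start (Rps6, Rps27 and Rpl35) beside 3 members on which the results below turn (Rpl13a, Rps2 and Rps27l). Capitals mark the longest run of C and T on the coding strand in each window.
Rps6, chr4:86857353-86857382, minus strand: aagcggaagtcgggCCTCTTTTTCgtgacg
Rps27, chr3:90213634-90213663, minus strand: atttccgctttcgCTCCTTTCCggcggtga
Rpl35, chr2:39005117-39005146, minus strand: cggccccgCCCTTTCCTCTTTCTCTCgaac
Rpl13a, chr7:45128731-45128760, minus strand: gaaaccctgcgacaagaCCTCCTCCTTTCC
Rps2, chr17:24720048-24720077, plus strand: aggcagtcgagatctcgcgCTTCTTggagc
Rps27l, chr9:66946071-66946100, plus strand: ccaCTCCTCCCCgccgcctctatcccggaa
In Rps6, Rps27 and Rpl35 the run crosses the start and continues for 9, 7 and 11 bases from it. In Rps27l the longest run lies upstream of the annotated start, whose base is G. Rps27 and Rps27l differ in this window, and no link to their RNA levels below was tested. An annotated start can lie some bases from the one the cells use, so a window without a run does not show that the mRNA lacks one.

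The libraries held 20659745 to 50859493 counts (median 31265114). The fibroblast markers were present in every group, with Col1a1, Col1a2, Col3a1, Dcn, Lum, Pdgfra, Pdgfrb, Thy1, Vim and Fn1 together at 12290 to 63351 CPM (counts relative to the library total, scaled by the TMM factor of edgeR) per library. Summed endothelial (12 genes), macrophage (11 genes) and epithelial markers (7 genes) reached at most 252, 107 and 71.5 CPM. The group DMSO 35 d removed stood apart: its libraries had 338 to 480 CPM of the proliferation marker Mki67, while the means of the other groups were 1.01 to 27.6 CPM. Its epithelial marker sum was 24.3 to 71.5 CPM, against at most 17.7 CPM in any other library, and 1 of the 7 epithelial markers was at 0 in its 3 libraries. Annotated rRNA took over 0.4% of counts in 4 libraries (0.431% to 2.91%), namely DMSO 15 d removed S7_705, DMSO 35 d removed S19_705 and S20_715, and IR 10 d S27_716. In bulk RNA, fewer cells of a type and less RNA per cell cannot be told apart.

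Levels of single members spanned several orders of magnitude per transcript length. The highest mean over the 27 libraries was that of Rplp1, a protein of the acidic stalk that recruits elongation factors, at 6063 TPM (counts scaled for transcript length and library). The lowest mean among the tested members was that of Rpl39l, a paralogue of Rpl39, at 1.76 TPM, and the median of the 78 was 332 TPM. Both untested members are paralogues with restricted expression: Rpl10l, known from the testis, had a mean of 0.00374 TPM, with reads in 2 of the 9 groups, and Rpl3l, known from striated muscle, did not pass 0.0684 CPM as the mean of any group. The main forms stood far above them, with Rpl10 at a mean of 446 TPM and Rpl3 at 224 TPM.

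Reads of these genes are shared with many near-identical sequences. A search with blastn assigned 808 annotated copies, 6 of them protein-coding, to 74 of the 80 members, and these copies held between 1.49 and 1.75 counts for each count on a member. Of all counts that fell on Rps13 or its copies, only 2.06% were on Rps13 itself, against 77.4% for Rps27l. How reads with several matches were counted was not stated, so the level of a member with many copies is uncertain, and each result was recomputed with every member summed with its copies.

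Summed over the 80 genes, the share of all counts ran from 1.76% to 6.12% across the libraries. It was 2.09% ± 0.142 (SD, n = 3) in DMSO 15 d removed and 4.60% ± 0.732 in KU60019 15 d removed. At 35 d the order of the removal groups was opposite, with 5.14% ± 0.942 in DMSO 35 d removed and 3.77% ± 0.556 in KU60019 35 d removed. The groups harvested without removal were at 2.43% ± 0.906 in DMSO 15 d, 2.84% ± 0.0729 in KU60019 15 d, 2.06% ± 0.480 in DMSO 35 d, 2.80% ± 0.273 in KU60019 35 d and 2.54% ± 0.201 in IR 10 d. DMSO 15 d removed lay among these, and the other 3 removal groups had higher means. In 2 DMSO groups 1 library stood off its group, namely DMSO 15 d S2_715 at 3.47%, beside 1.86% and 1.96%, and DMSO 35 d S13_705 at 2.61%, beside 1.76% and 1.81%. The small subunit held 2.05% and the large 2.54% of counts in KU60019 15 d removed, and 0.923% and 1.17% in DMSO 15 d removed. In DMSO 35 d removed they held 2.22% and 2.93%, with 2.52% and 3.60% in its library S19_705.

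**Figure D1:**
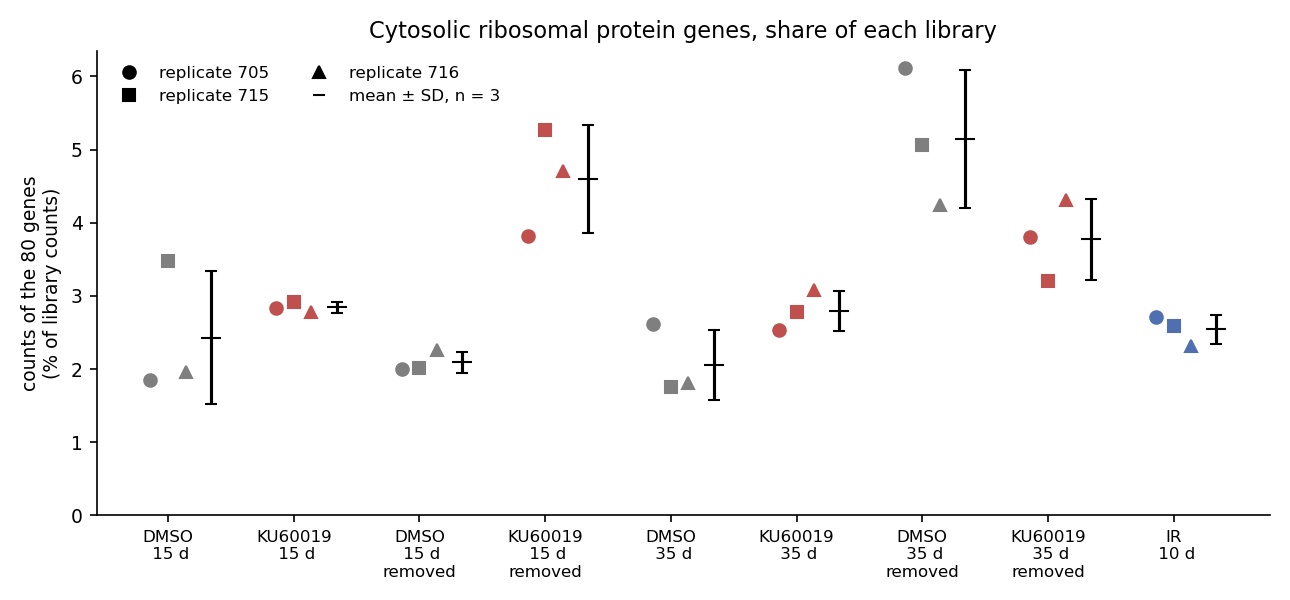
Counts of the 80 cytosolic ribosomal protein genes as a percentage of all counts of a library (y axis) in the 9 groups (x axis); each symbol is 1 library, grey for DMSO, red for KU60019 and blue for IR, and the black bar is the mean ± SD of 3. The 3 libraries of KU60019 15 d removed (3.82% to 5.27%) lie above the 3 of DMSO 15 d removed (2.01% to 2.25%), whereas those of KU60019 35 d removed and DMSO 35 d removed overlap.

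Ribosomal protein mRNAs are short, at 271 to 3706 nt with the middle 50% of members between 524 and 981 nt, against a median of 2775 nt for the other protein-coding genes tested, so a library that favours long transcripts lowers most of them. Rps20, at 3706 nt, is longer than that median. The Spearman correlation across genes between a gene's level in a library, relative to its mean over libraries, and its mRNA length ran from -0.32 to 0.42. It was 0.33 to 0.42 in 7 libraries, all of them DMSO libraries: DMSO 15 d S1_705 and S3_716, the 3 of DMSO 15 d removed, and DMSO 35 d S14_715 and S15_716. Their members held 1.76% to 2.25% of counts. In the other 20 libraries the correlation was at most 0.11 and the members held 2.32% to 6.12%. The mean correlation was higher with DMSO than with KU60019 at 15 d (0.22 and -0.05) and at 35 d (0.28 and -0.03). Of these libraries, DMSO 15 d S2_715 (-0.14) and DMSO 35 d S13_705 (0.05) did not lie above all KU60019 libraries of their day. After removal at 15 d the means were 0.36 and -0.19, and at 35 d -0.15 and -0.28, without overlap of libraries. IR 10 d, set against DMSO 15 d, had a mean of -0.06. The length trend of a library thus moved with the group in each of these comparisons. The comparisons below are given also after this trend, fitted over other protein-coding genes, was removed. Whether it arose in the cells or in library preparation was not tested.

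**Figure D2:**
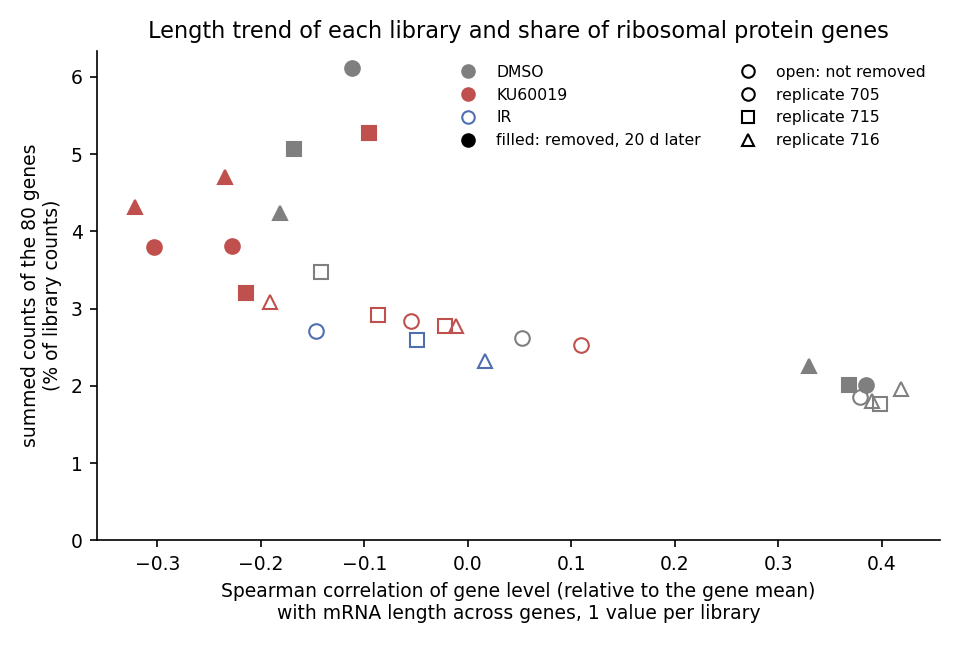
Share of counts on the 80 genes (y axis, %) against the Spearman correlation of gene level with mRNA length in the same library (x axis, no unit); each symbol is 1 of the 27 libraries, with colour for agent and shape for the ending of its title, filled for removal groups and open for the others. The 7 libraries at the right, with correlations of 0.33 to 0.42, are all DMSO and hold the 7 lowest shares, and the 20 others spread from 2.32% to 6.12%.

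After 15 d of KU60019, 2 of 78 members were called higher and none lower (edgeR, Benjamini-Hochberg adjusted p under 0.05 over all 18684 genes tested), while 13.2% of all genes were called higher and 17.1% lower. Rpl12, a protein at the base of the ribosomal stalk, was at 103, 115 and 106 CPM with KU60019 and at 55.8, 89.9 and 64.9 CPM with DMSO in libraries ending in _705, _715 and _716, the order used throughout. The groups did not overlap, and the log2 fold change was 0.62 ± 0.18 (SE, adjusted p = 0.0127). Rps27l rose by 1.01 ± 0.35 (adjusted p = 0.0326). The median log2 fold change of the 78 was 0.24, against -0.02 for all genes, and 3 members higher and 1 lower had an unadjusted p under 0.05. Shares of all genes at the unadjusted threshold and under the alternatives of this paragraph are not given. DESeq2 called 2 higher and 1 lower, and limma on TPM 0 higher and 1 lower. Of the marker genes tested, 5 of 10 fibroblast, 9 of 12 endothelial and 5 of 7 macrophage genes were lower with KU60019. The fibroblast markers summed to 12461 to 15062 CPM against 35015 to 52063 CPM, and the epithelial markers to 13.5 to 17.7 CPM against 2.11 to 4.91 CPM. The part of these shifts in the result was not tested.

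These counts at 15 d rested on single libraries, and shares of all genes under the alternatives of this paragraph are not given. Without DMSO 15 d S2_715, whose share of ribosomal protein counts was the highest of its group, 39 members were called higher, with a median of 0.65. Without DMSO 15 d S1_705 or S3_716, or without KU60019 15 d S5_715, none was, and 1 was called without KU60019 15 d S4_705 or S6_716. With the mRNA length trend removed the median fell to 0.01, and 1 member was called higher (Rpl12, log2 fold change 0.46, adjusted p = 0.0178) and 3 lower. The latter were Rpl3, Rpl10a and Rps27. Rpl3, which lies near the peptidyl transferase centre, was then at -0.46 (adjusted p = 0.000933), against -0.30 ± 0.12 (adjusted p = 0.0658) without that correction. With DMSO 15 d S2_715 left out and the trend removed, 5 were called higher and 2 lower.

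After 35 d of KU60019, 6 of 78 members were called higher and none lower, beside 9.7% and 8.4% of all genes. They were Rps27a, made as a fusion with ubiquitin, Rps27, Rps12, Rps19, a gene mutated in Diamond-Blackfan anaemia, Rpl17 and Rpl31. Rps27a was at 172, 178 and 216 CPM with KU60019 and at 158, 93.5 and 97.5 CPM with DMSO, so the groups did not overlap (log2 fold change 0.70 ± 0.23, adjusted p = 0.0344). Rps27 was at 61.8, 68.9 and 81.4 CPM against 55.4, 33.4 and 35.4 CPM (0.77 ± 0.25, adjusted p = 0.0354). The median of the 78 was 0.50 against -0.01 for all genes, 31 members were higher at an unadjusted p under 0.05, and 76 of the 78 values lay above 0. Shares of all genes at the unadjusted threshold and under the alternatives of this paragraph are not given. DESeq2 called 14 higher, and limma on TPM, where 60 of the 78 values lay above 0, called 0 higher and 2 lower. Each of the 6 called members held under 50% of the counts of its copy family: none of the 21 members that hold at least 50% of the counts of their copy family was called, although their median was 0.48. With copies summed, the calls of Rps27 (adjusted p = 0.0748), Rps12 (adjusted p = 0.0824) and Rpl31 (adjusted p = 0.0600) were lost, and those of Rps27a, Rps19 and Rpl17 were not. Of the 10 fibroblast markers 6 were lower and 2 higher in the same comparison, with sums of 19686 to 21118 CPM against 42873 to 52718 CPM, and their part was not tested.

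The count at 35 d moved with each library left out, and shares of all genes under the alternatives of this paragraph are not given. Without DMSO 35 d S13_705, 35 members were called higher (median 0.74). Without DMSO 35 d S14_715 or S15_716, or KU60019 35 d S18_716, none was called, 2 were called without KU60019 35 d S16_705, and 1 without KU60019 35 d S17_715. With the length trend removed, 3 members were called higher (median 0.21) and 1 lower. Among them Rps27a stayed called at 0.39 (adjusted p = 0.0120), Rps27 at 0.35 (adjusted p = 0.0117) and Rps19 at 0.42 (adjusted p = 0.0342).

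In irradiated cells, set against DMSO 15 d and so sharing its controls with the comparison at 15 d of KU60019, 3 of 78 members were called higher and 1 lower, beside 14.1% and 16.8% of all genes. Rps27l was at 193, 193 and 185 CPM after IR and at 69.7, 78.2 and 72.5 CPM in DMSO 15 d. The groups lay far apart, and the log2 fold change was 1.37 ± 0.35 (2.59-fold, adjusted p = 0.00525). It was the one member called higher here that stayed so with the length trend removed (1.04, adjusted p = 0.0390) and with each single library left out, though not with DMSO 15 d S2_715 left out and the trend removed together (0.87, adjusted p = 0.122). Rpl3 was at 190, 181 and 165 CPM against 228, 297 and 228 CPM, and fell by 0.49 ± 0.12 on the log2 scale (adjusted p = 0.00445). With the length trend removed it fell by 0.68 (adjusted p = 1.48e-05), and summed with its 19 copies it was at -0.32 (adjusted p = 0.326). Its call was also lost when edgeR was run on the 2 compared groups alone.

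Rpl39 (0.59 ± 0.21, adjusted p = 0.0359) and Rps13 (0.46 ± 0.17, adjusted p = 0.0460) were the other members called higher after IR. Neither was called with the length trend removed, and with copies summed as well the value of Rps13 turned to -0.06. The median of the 78 was 0.19, and -0.04 with the length trend removed, where 2 were called higher and 9 lower. In the same comparison 9 of 12 endothelial and 5 of 10 fibroblast markers were lower, and their part was not tested. Without DMSO 15 d S2_715, 35 members were called higher. Shares of all genes with the length trend removed or a library left out are not given for this comparison. The number was 1 without DMSO 15 d S1_705 or S3_716, or IR 10 d S25_705 or S26_715, and 2 without IR 10 d S27_716; 2 were called lower without DMSO 15 d S1_705 or S3_716.

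**Figure D3:**
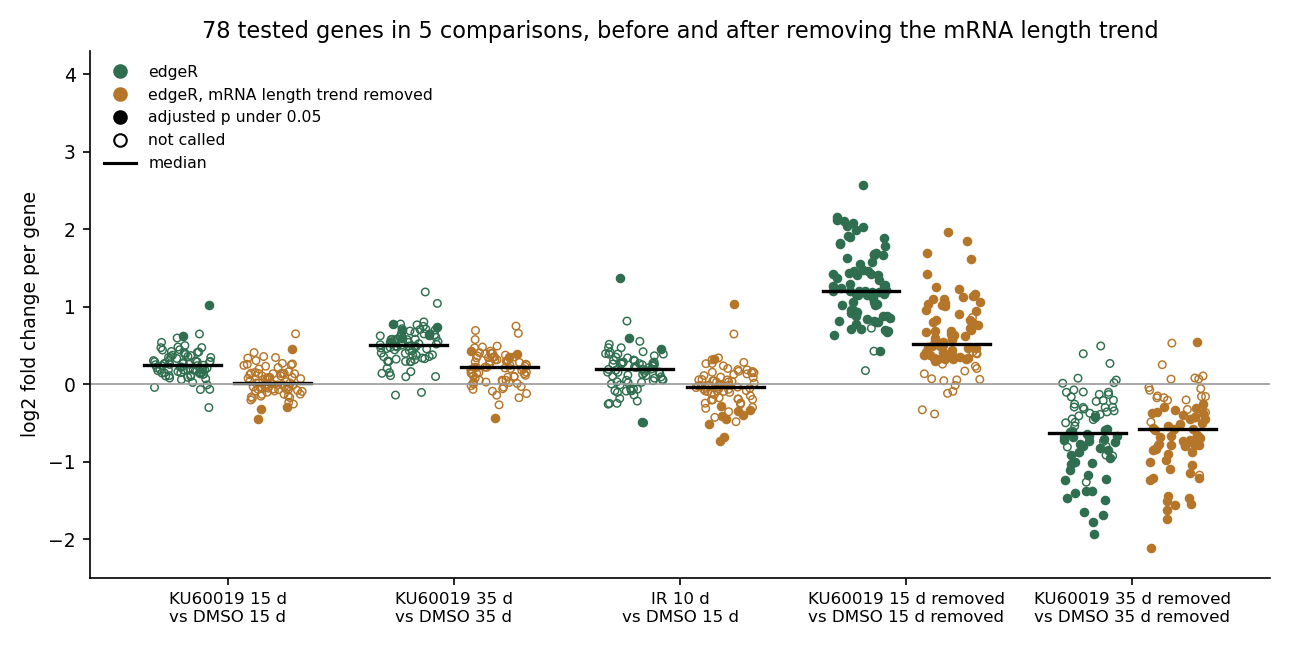
Log2 fold change (y axis) of each of the 78 tested genes in 5 comparisons (x axis), as fitted by edgeR (green) and after removal of each library's trend with mRNA length (brown); filled symbols have an adjusted p under 0.05 and black lines are medians. Medians of 0.24, 0.50 and 0.19 without removal become 0.01, 0.21 and -0.04 with the trend removed, the median of 1.20 after removal of KU60019 at 15 d becomes 0.52, and that of -0.63 at 35 d becomes -0.59.

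In cells harvested 20 d after 15 d of KU60019, nearly all members were higher than in cells taken off DMSO. In total 75 of 78 were called higher and none lower, beside 24.7% and 24% of all genes, with a median log2 fold change of 1.20 against -0.01 for all genes. In 74 of the 78 the 3 libraries of KU60019 15 d removed lay above the 3 of DMSO 15 d removed, while 26.5% of all genes did so. Rps27l (0.72 ± 0.35, adjusted p = 0.0926), Rpl27 (0.42 ± 0.22, adjusted p = 0.122) and Rpl7a (0.17 ± 0.17, adjusted p = 0.425) were not called. Of the 10 fibroblast markers 7 were lower in the same comparison, with sums of 23700 to 31296 CPM against 55538 to 63351 CPM, and their part was not tested. The small and the large subunit had similar values, with medians of 1.26 and 1.19 and 30 of 31 and 45 of 47 members called.

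Of the small subunit, Rps13 was at 20.5, 22.3 and 20.6 CPM after removal of KU60019 and at 9.07, 8.73 and 11.4 CPM after removal of DMSO (1.12 ± 0.17, adjusted p = 0.000114). Rps27a was at 268, 309 and 293 CPM against 110, 106 and 127 CPM (1.34 ± 0.23, adjusted p = 0.000220). Rps27 rose by 1.46 ± 0.25, and Rpsa, also known as the laminin receptor precursor, by 1.57 ± 0.38 (adjusted p = 0.00221). In each of these genes every library of KU60019 15 d removed lay above every library of DMSO 15 d removed.

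Of the large subunit, Rpl11 was at 146, 151 and 168 CPM against 74.5, 69.0 and 80.2 CPM (1.06 ± 0.17, adjusted p = 0.000180). Rpl5, its partner in the 5S RNA particle, rose by 1.02 ± 0.22 (adjusted p = 0.000820). Rpl36a, near the tRNA exit site, was at 119, 240 and 150 CPM against 42.8, 44.0 and 48.6 CPM (1.91 ± 0.33, adjusted p = 0.000221), with library S11_715 the highest. The stalk proteins Rplp1 and Rplp2 rose by 1.98 ± 0.42 and 2.02 ± 0.42, and Rplp0, which anchors them, by 0.68 ± 0.19. The highest value, 2.57 ± 0.57, was that of Rpl24, named after its value was seen, with 155, 534 and 197 CPM against 48.1, 47.1 and 54.4 CPM.

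The rise after removal at 15 d kept its direction under other scalings but shrank with the length trend. With the trend removed, 60 members were called higher (22.4% of all genes) and none lower, with a median of 0.52. Rps13 then had a log2 fold change of 0.34 (adjusted p = 0.0356), Rpl11 of 0.44, Rps27a of 0.60 and Rpl36a of 1.04, while Rps27l was at -0.12. On TPM, limma called 55 higher with a median of 0.62, on a scale on which the median of all genes was -0.47 and 3 of the 78 values lay below 0, and Rpl3 was the 1 called member whose TPM value had the opposite sign. With copies summed 76 were called, and of the 21 members that hold at least 50% of the counts of their copy family, 20 were called (median 1.20). The count was 73 to 75 with any single library of the 2 groups left out. Shares of all genes with limma, with copies summed and with a library left out are not given.

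After 35 d the comparison had the opposite sign. With KU60019 removed, 37 of 78 members were called lower and none higher than with DMSO removed, beside 24.5% and 24.4% of all genes, with a median of -0.63, while that of all genes lay near 0. In 31 of the 78 all 3 libraries of KU60019 35 d removed lay below those of DMSO 35 d removed, as in 23.5% of all genes. Small and large subunit had 15 of 31 and 22 of 47 members called, with medians of -0.60 and -0.68. DESeq2 called 41 lower, and the share of all genes it called is not given.

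Rps2, at the mRNA entry side of the small subunit, was at 263, 251 and 267 CPM with KU60019 removed and at 1308, 659 and 553 CPM with DMSO removed, and fell by 1.69 ± 0.25 on the log2 scale (adjusted p = 9.72e-06). Rpl13a, which also leaves the ribosome to repress inflammatory mRNAs, was at 71.4, 61.1 and 75.4 CPM against 276, 170 and 131 CPM (-1.47 ± 0.24, adjusted p = 3.10e-05). Rplp0 was at 1298, 1157 and 1122 CPM against 3536, 2156 and 2029 CPM (-1.11 ± 0.19, adjusted p = 5.75e-05). In all 3 genes no libraries overlapped, and DMSO 35 d removed S19_705 was the highest.

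Rpl15, which lies deep in the large subunit, fell by 1.00 ± 0.19 (adjusted p = 0.000188), Rpsa by 1.93 ± 0.38 (adjusted p = 0.000252) and Rpl3 by 0.58 ± 0.12 (adjusted p = 0.000531). Rps27 (0.39 ± 0.25, adjusted p = 0.202) and Rps27l (0.49 ± 0.35, adjusted p = 0.252) had values above 0, and Rpl11 fell by 0.64 ± 0.17 (adjusted p = 0.00375) while Rpl5 was at -0.21 ± 0.21 (adjusted p = 0.427). Values of the members in this comparison ran from -1.93 to 0.49, and none above 0 was called. Their spread was not tested. After removal at 15 d the values were spread as well, with Rpl7a at 0.17 and Rpl36a at 1.91.

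The fall at 35 d depended on the libraries and the scaling more than the rise at 15 d. Shares of all genes called with a single library left out, by library size alone and on TPM are not given. The counts of members under those settings thus cannot be set against all genes. Without DMSO 35 d removed S19_705, the library with 6.12% of its counts on these genes, 15 members were called lower (median -0.37), and without KU60019 35 d removed S23_715 21 were. Without the libraries of high rRNA, which left DMSO 35 d removed with 1 of its 3 libraries, assumed to vary like the other groups, 5 were called lower (14% of all genes) and the median was -0.17. By library size alone, where the median of all genes was 0.29, 16 were called lower and 2 higher; on TPM, where it was 0.32, 14 lower and 4 higher, with 46 of 78 values below 0, and there Rpl7, called lower by edgeR, had the opposite sign. With the length trend removed 56 were called lower (28.8% of all genes) and 1, Rps27, higher (0.54). The 3 libraries of DMSO 35 d removed were also the ones with high Mki67 and epithelial markers, of which 4 of 7 (Epcam, Cdh1, Krt8 and Scgb1a1) did not pass the filter on low counts. The macrophage markers summed to 68.3 to 94.9 CPM with KU60019 removed and to 21.9 to 31.9 CPM with DMSO removed. The part of these shifts in the result was not tested.

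**Figure D4:**
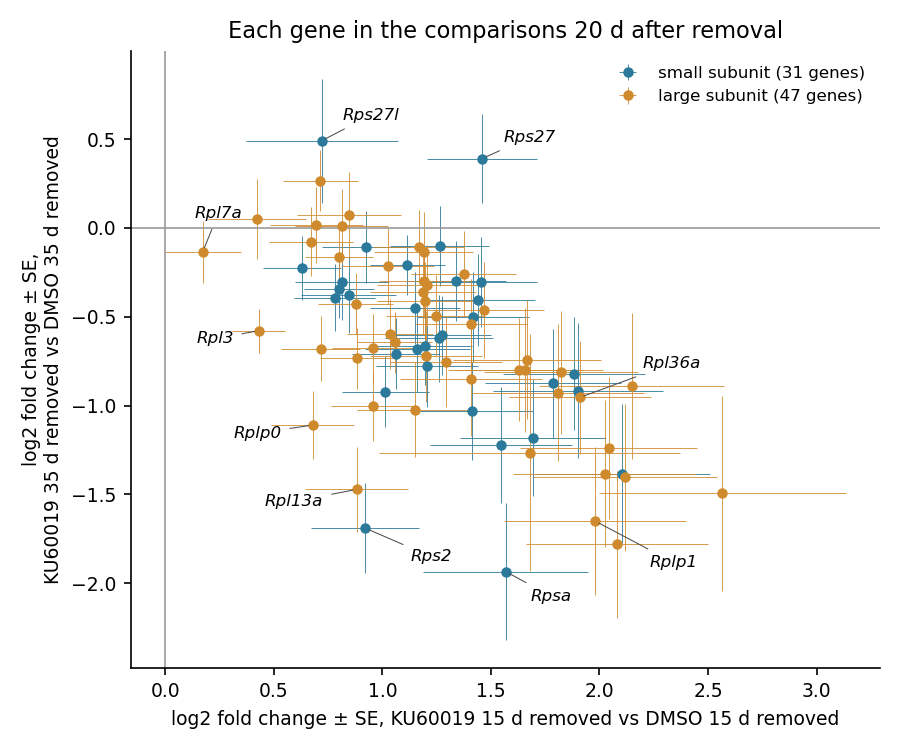
Log2 fold change ± SE of the 78 genes in KU60019 15 d removed against DMSO 15 d removed (x axis) and in KU60019 35 d removed against DMSO 35 d removed (y axis), blue for the small and orange for the large subunit. All 78 values lie right of 0 and 71 lie below 0; Rpsa (1.57 and -1.93) and Rplp1 (1.98 and -1.65) moved far in both, and Rps27 and Rps27l lie above 0 in both.

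To see which group moved in each removal comparison, the removal groups were also set against their own groups before removal, a step added after the data were seen. In DMSO 35 d removed against DMSO 35 d, 77 of 78 members were called higher and none lower (31.5% and 32.6% of all genes), with a median of 1.43. Only Rpl7a was not called (0.33 ± 0.17, adjusted p = 0.0977). Rpl13a was at 55.9, 39.6 and 39.8 CPM in DMSO 35 d, below all 3 libraries after removal. It rose by 2.09 ± 0.25 (4.27-fold, adjusted p = 3.58e-07), Rps2 by 2.06 ± 0.26 (adjusted p = 7.02e-07) and Rpl11 by 1.28 ± 0.17. With the length trend removed 67 were called (median 0.87), and without the libraries of high rRNA 73 were (median 1.10). On TPM 53 were called higher, with 9 of the 78 values below 0 where the median of all genes was -0.67. Of the called members 8 had the opposite sign there, among them Rpl3, Rpl4, Rpl10 and Rps27l. Shares of all genes with the length trend removed, without the libraries of high rRNA and on TPM are not given. Fibroblast markers summed to 13965 to 18332 CPM in DMSO 35 d removed and to 42873 to 52718 CPM in DMSO 35 d, and the part of this shift was not tested.

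In KU60019 15 d removed against KU60019 15 d, 63 members were called higher and none lower (21.3% and 19% of all genes), with a median of 0.92, and 62 with the length trend removed (median 0.64). The share of all genes with the trend removed is not given. Rpl3, at 346, 322 and 382 CPM after removal and 217, 193 and 199 CPM before, rose by 0.78 ± 0.12 (adjusted p = 5.38e-05). Rpl10a, Rps27 and Rpl10 followed with 1.08 ± 0.17, 1.32 ± 0.25 and 0.81 ± 0.16. Of the stalk proteins Rplp2 was called (1.12 ± 0.41, adjusted p = 0.0340), and Rplp1 (0.99 ± 0.41, adjusted p = 0.0586) and Rplp0 (0.40 ± 0.19, adjusted p = 0.0963) were not. Between the same groups the fibroblast marker sum was higher after removal (23700 to 31296 CPM against 12461 to 15062 CPM) and the epithelial sum lower (2.17 to 4.39 CPM against 13.5 to 17.7 CPM), without overlap, and their part was not tested.

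In the remaining pairs of groups before and after removal, no member was called by edgeR. In DMSO 15 d removed against DMSO 15 d, where 7.02% of genes were called in either direction, no member had an unadjusted p under 0.05, and DESeq2 and limma on TPM called 0. The median was -0.11, and 0.26 without DMSO 15 d S2_715. With the length trend removed it was 0.07, and Rpl10a was called higher (0.28, adjusted p = 0.0379). In KU60019 35 d removed against KU60019 35 d, where 12.6% of genes were called, 18 members were higher at an unadjusted p under 0.05, DESeq2 called 3 higher, limma on TPM 6, and edgeR on these 2 groups alone 14. Shares of all genes beside these counts of members are not given. The median was 0.42, with 77 of 78 values above 0, and 0.10 with the length trend removed. DMSO 35 d against DMSO 15 d, with 1.56% of genes called, also had 0 members called by edgeR, DESeq2 and limma and none at an unadjusted p under 0.05. Its median was -0.17, with 76 of 78 values below 0, and 0.23 without DMSO 15 d S2_715. After removal of the length trend the median was -0.09 and edgeR called 0 members, with 0 at an unadjusted p under 0.05. Here 10 of 12 endothelial and 4 of 7 macrophage markers were lower in DMSO 35 d.

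The effects of KU60019 before and after removal were compared by interaction terms. After 15 d, the effect after removal exceeded that before it in 53 members and was called lower in none (14% and 11.4% of all genes), with a median difference of 1.00. Rpl3 (0.73 ± 0.17, adjusted p = 0.00461), Rps27 (1.47 ± 0.35), Rpl10a (0.95 ± 0.24) and Rpl7 (0.95 ± 0.24) had the lowest p. The count was 33 with the length trend removed, 26 with limma on TPM and 7 without DMSO 15 d S2_715, and lay between 20 and 33 without any of KU60019 15 d S4_705, S5_715 or S6_716, DMSO 15 d removed S7_705 or S8_715, or KU60019 15 d removed S11_715. It was 35 without KU60019 15 d removed S12_716. Shares of all genes called under these alternatives are not given.

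After 35 d the effect after removal was below that before it in 56 members and above it in none (16.6% and 15.8% of all genes), with a median difference of -1.06. Rps2 (-1.89 ± 0.35, adjusted p = 0.000334), Rpl13a (-1.63 ± 0.34), Rpl15 (-1.29 ± 0.27) and Rplp1 (-2.69 ± 0.58) led. The count was 57 with the length trend removed, 11 with limma on TPM, where the median of all genes was 0.67 and 25 of the 78 values lay above 0, and 1 without the libraries of high rRNA. It was 30, 35, 35 and 32 without DMSO 35 d S14_715, DMSO 35 d S15_716, DMSO 35 d removed S19_705 and KU60019 35 d removed S23_715. Shares of all genes called under these alternatives are not given. The effects at 35 d and 15 d without removal did not differ by the test in any member (edgeR, 11.7% of genes called); 1 member was higher at an unadjusted p under 0.05, and the median difference was 0.23, and -0.15 without DMSO 15 d S2_715. After removal of the length trend the median was 0.18 and 1 member, Rps27, was called higher (0.66, adjusted p = 0.00213).

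Rps27l differed in pattern from most members. Besides the rises after 15 d of KU60019 and after IR, it was at 113, 131 and 134 CPM in KU60019 35 d against 110, 72.1 and 74.7 CPM in DMSO 35 d, where the groups did not overlap but the test was not passed (0.56 ± 0.35, adjusted p = 0.281). After removal at 35 d it was at 229, 195 and 225 CPM in KU60019 and 50.7, 197 and 213 CPM in DMSO libraries. After removal at 15 d it was at 161, 57.9 and 170 CPM with KU60019 and 76.5, 78.7 and 80.9 CPM with DMSO. The low values belong to KU60019 15 d removed S11_715 and DMSO 35 d removed S19_705, the libraries in which Rplp1 was highest of all (5512 and 11315 CPM) and Rpsa too (1609 and 3661 CPM). Without KU60019 15 d removed S11_715 the removal comparison at 15 d gave a log2 fold change of 1.07 and was called. Rps27, which takes the same place in the small subunit, was at 44.7, 44.0 and 45.1 CPM in KU60019 15 d and 33.3, 71.0 and 30.6 CPM in DMSO 15 d (-0.01 ± 0.25, adjusted p = 0.978). The call of Rps27l at 15 d of KU60019 was lost on leaving out any 1 library except DMSO 15 d S2_715 (adjusted p = 0.0601 to 0.104) and with the length trend removed (0.65, adjusted p = 0.202).

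**Figure D5:**
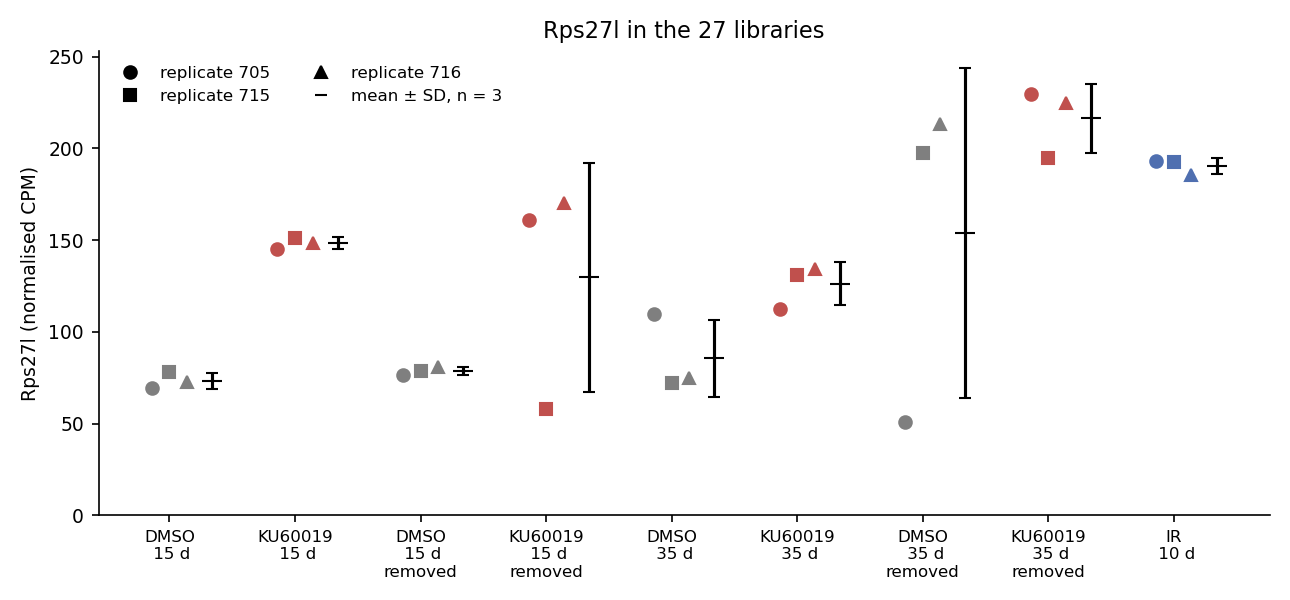
Level of Rps27l (y axis, CPM scaled by TMM) in the 27 libraries by group (x axis); each symbol is 1 library and black bars are the mean ± SD of 3. The 3 IR libraries (185 to 193 CPM) and the 3 of KU60019 15 d (145 to 151 CPM) lie above those of DMSO 15 d (69.7 to 78.2 CPM), and 1 library each of KU60019 15 d removed and DMSO 35 d removed lies at 57.9 and 50.7 CPM.

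Other genes of the translation machinery were read from lists. In KU60019 15 d removed against DMSO 15 d removed, where 24.7% of all genes were called higher and 24% lower, 12 of 18 translation factors with pyrimidine-tract mRNAs were called higher and 1 lower (median 0.63). The lower one was Eef2, the elongation factor of translocation (-0.63). Of 38 ribosome biogenesis factors 17 were higher and 4 lower, and of 77 tested mitochondrial ribosomal proteins 61 were higher and none lower (median 0.77). In KU60019 35 d removed against DMSO 35 d removed, where 24.4% of all genes were called higher and 24.5% lower, 12 translation factors, 28 biogenesis factors and 10 of 15 RNA polymerase I genes were called lower, with none, none and 2 higher. Among them were the nucleolar proteins Ncl (-1.44), Npm1 (-1.35) and Fbl (-1.58), and Ubtf (-1.80), which opens rRNA genes to transcription. Of the 77 mitochondrial ribosomal proteins 24 were called lower and 5 higher (median -0.22), and the share called lower is near that of all genes.

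After 15 d of KU60019, where 13.2% of all genes were called higher and 17.1% lower, 26 of the 38 biogenesis factors were called higher and none lower (median 0.59). The 2 of 78 members called there ran from 0 to 39 with single libraries left out, as given above, and no difference between the lists was tested. After 35 d, beside 9.7% and 8.4% of all genes, 2 factors were higher and 2 lower. In KU60019 15 d removed against KU60019 15 d, 16 factors were called lower and none higher (median -0.34), beside 19% and 21.3% of all genes. After IR, beside 14.1% of all genes higher and 16.8% lower, 17 factors were higher and 3 lower, and 29 of 77 mitochondrial ribosomal proteins were higher and none lower. Of the 7 ribosomal proteins whose symbols fall outside the naming rule, 5 were called higher after removal at 15 d and 4 lower after removal at 35 d. Of 19 regulators of ribosomal protein translation, 2 were higher and 6 lower after removal at 15 d, and 2 higher and 5 lower after removal at 35 d. These counts are near or below the shares of all genes given for both comparisons. Mtor was at -0.84 and 0.46, called in the first, and Larp1 at 0.35 and -0.93, called in the second. Fau, whose product is cut to a small subunit protein, was at 1.77 and -1.23, and Rpl36al, a paralogue of Rpl36a, at 1.89 and -1.58.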

How the data were processed

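RNA of 27 libraries was analysed from 2 tables deposited by the authors, one of raw counts per gene and one of TPM per gene. Per the submitters' processing notes, featureCounts assigned reads and the build was mm10. Not given in the sources used here were the aligner, the strand setting, the annotation release and how reads with several matches were treated. The deposited counts are whole numbers, with 20659745 to 50859493 per library, and the deposited TPM values are normalized for transcript length.

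Groups and the replicate endings _705, _715 and _716 came from the labels. Counts were fitted with edgeR 4.0.16 (R 4.3.3) by the quasi-likelihood test on all 27 libraries in 1 model with TMM scaling, after filterByExpr with a minimum count of 10. p-values were adjusted by Benjamini-Hochberg over the 18684 genes kept, and a gene was called at an adjusted p under 0.05. Given errors of log2 fold changes are standard errors. CPM values are scaled by the TMM factor. The members and gene lists were chosen with earlier results of these data known. Named members were a panel of known members and paralogues and, per comparison, up to 4 called higher and up to 4 called lower with the lowest p.

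Alternatives were DESeq2 1.42.0, limma 3.58.1 on log2(TPM + 1) and log2(TPM + 0.1), other scalings, no filter, a replicate block, only the compared groups, removal of the trend with length, and each library left out. After the data were seen, the trend with the length and GC content of the main mRNA, copies summed, pairs of these, omission of libraries with over 0.4% annotated rRNA, and the 4 comparisons of removal groups with their groups before removal were added. Copies were found with blastn 2.17.0 at 90% identity over at least 50% of the coding sequence. Scripts were tested on simulated data. Same-numbered libraries deviated together by the rule set for pairing (every correlation over 0.1) only in KU60019 15 d against DMSO 15 d (0.22 to 0.39), where the block left the counts at 2 and 0. Start-site sequences came from RefSeq (GRCm38.p6). Protein identities between paralogues were not analysed here.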

Additional observations from a re-analysis of the deposited data

Results flagged for a closer look

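The gap between the KU60019 and DMSO groups 20 d after removal differed from the gap before removal, by a test of the difference itself. After 15 d the difference was called higher in 53 members (14% of all genes), with log2 differences of 0.73 for Rpl3, 1.47 for Rps27, 0.95 for Rpl10a and 0.95 for Rpl7. After 35 d it was called lower in 56 members (16.6% of all genes), with -1.89 for Rps2, -1.63 for Rpl13a, -1.29 for Rpl15 and -2.69 for Rplp1. At 35 d the DMSO groups themselves differed. In DMSO 35 d removed against DMSO 35 d, 77 members were called higher (31.5% of all genes), with Rps2 at 2.06. In KU60019 35 d removed against KU60019 35 d, 0 were called (12.6% of all genes in either direction), with Rps2 at 0.17. The libraries of DMSO 35 d removed also had 338 to 480 CPM of Mki67. The counts of 53 and 56 moved with single libraries and with the scaling, as given beside them above. The count at 35 d also nearly vanished when the libraries of high rRNA were left out, which include most of DMSO 35 d removed.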

How the results depend on the processing

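Of the results on counts of members under all alternatives, 510 kept within 1.5 times the main value and 136 moved. A count of 0 that stayed at 0 was taken as kept, so the 510 do not measure how stable the counts above 0 were. Ranges of those counts with single libraries left out close this section. Of the results on named members 776 kept direction and side of the threshold, 124 lost the threshold, 4 gained it and 5 reversed. The cause of these changes was not tested. The reversed values were those of Rps27l in KU60019 15 d removed against DMSO 15 d removed, 0.72 at first, -0.12 with the mRNA length trend removed, -0.10 with GC as well, -0.14 with the replicate block and the length trend, and -0.15 with copies summed and the trend removed, and Rps13 after IR with copies summed and the trend removed, -0.056.

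Members called higher or lower moved as follows, without the shares of all genes called under each alternative. With DESeq2, KU60019 35 d had 14 higher, KU60019 35 d removed against KU60019 35 d 3 higher, KU60019 15 d 1 lower and IR 2 lower. With copies summed, KU60019 15 d had 1 higher and IR 1 higher and 0 lower. With copies summed and the mRNA length trend removed, KU60019 15 d had 0 higher and 2 lower, KU60019 35 d 3 higher and 1 lower, KU60019 35 d removed 1 higher and 57 lower, IR 1 higher and 8 lower, and the difference between 35 d and 15 d 1 higher. With the mRNA length trend removed, KU60019 15 d had 1 higher and 3 lower, KU60019 35 d 3 higher and 1 lower, IR 9 lower, KU60019 35 d removed 1 higher and 56 lower, KU60019 35 d removed against KU60019 35 d 1 lower, DMSO 15 d removed against DMSO 15 d 1 higher, and the differences 33 higher after removal at 15 d and 1 higher between 35 d and 15 d. With GC also removed, KU60019 15 d had 3 lower, KU60019 35 d 1 lower, IR 11 lower, KU60019 35 d removed 2 higher, KU60019 35 d removed against KU60019 35 d 1 lower, and the difference between 35 d and 15 d 2 higher. With the trend of summed exon length removed, KU60019 35 d had 2 higher, IR 2 lower and KU60019 15 d 1 lower.

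By library size alone, KU60019 15 d had 1 higher, IR 1 higher and 2 lower, KU60019 35 d removed 2 higher and 16 lower, KU60019 35 d removed against KU60019 35 d 3 higher, and the difference after removal at 35 d 31 lower. With limma on log2(TPM + 1), KU60019 15 d had 0 higher and 1 lower, KU60019 35 d 0 and 2, IR 1 and 4, KU60019 35 d removed 4 and 14, KU60019 35 d removed against KU60019 35 d 6 higher, and the differences 26 higher after removal at 15 d and 11 lower after removal at 35 d. With log2(TPM + 0.1) the values were the same except 0 higher after IR and 24 for the difference at 15 d, and with log2(TPM + 1) and no filter they were, in the same order, 0 and 1, 0 and 1, 0 and 4, 3 and 12, 3 higher, 11 higher and 5 lower. With no filter in edgeR, KU60019 15 d had 1 higher, KU60019 35 d 2 higher and the difference at 15 d 27 higher. With only the compared groups, KU60019 15 d had 1 higher, KU60019 35 d 24 higher, IR 1 higher and 0 lower, KU60019 35 d removed 13 lower and KU60019 35 d removed against KU60019 35 d 14 higher. Without libraries of high rRNA, KU60019 35 d removed had 5 lower and the difference at 35 d 1 lower.

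With the replicate block, KU60019 35 d had 3 higher, and no other count moved by over 1.5 times. With the replicate block and the mRNA length trend removed, KU60019 15 d had 1 higher and 3 lower, KU60019 35 d 3 higher and 1 lower, IR 9 lower, KU60019 35 d removed 1 higher, DMSO 15 d removed against DMSO 15 d 1 higher, and the differences 31 higher at 15 d and 1 higher between 35 d and 15 d. Without DMSO 15 d S2_715 and with the trend removed, KU60019 15 d had 5 higher and 2 lower, IR 6 lower, and the differences 12 higher at 15 d and 1 higher between 35 d and 15 d. As percent of TPM, the members held 4.11 in DMSO 15 d, 4.40 in KU60019 15 d, 3.78 in DMSO 15 d removed, 6.59 in KU60019 15 d removed, 3.70 in DMSO 35 d, 4.20 in KU60019 35 d, 6.82 in DMSO 35 d removed, 5.37 in KU60019 35 d removed and 4.06 in IR 10 d; without Rplp1 the share of counts in KU60019 15 d was 2.66%.

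With single libraries left out, counts higher ran from 0 to 39 in KU60019 15 d, 0 to 35 in KU60019 35 d, 73 to 75 in KU60019 15 d removed, 1 to 35 in IR (lower 1 to 2), 7 to 59 for the difference at 15 d, 52 to 63 in KU60019 15 d removed against KU60019 15 d, 73 to 78 in DMSO 35 d removed against DMSO 35 d and 0 to 2 in KU60019 35 d removed against KU60019 35 d. Counts lower ran from 15 to 46 in KU60019 35 d removed and from 30 to 66 for the difference at 35 d. Counts of Rpl3l and Rpl10l were too low for any test.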
